A study of Homo sapiens with 12 samples.

Results

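The genes described are 40 DNA damage repair genes, chosen by gene symbol from what is known of their function, of which 38 were found among the 11529 genes of the expression table. PALB2 and XPC were not analysed here. The 38 genes were grouped by pathway, with 16 in homologous recombination and its damage signalling, 6 in end joining, 2 in mismatch repair, 9 in base excision repair and 5 in nucleotide excision repair. All 38 were kept in every comparison, and no filter on low values was added to that of the authors.

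DNA repair pathways are divided by the lesion they remove. Double-strand breaks are either joined end to end or copied from the sister chromatid by homologous recombination, while mispaired, oxidised or bulky bases are cut out by mismatch, base excision and nucleotide excision repair. In breast cancer these pathways are best known through the BRCA genes, whose loss makes cells sensitive to platinum drugs and to PARP inhibitors. SMARCA4 is an ATPase of the SWI/SNF complex, which moves nucleosomes on chromatin.

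RNA sequencing was done in 12 samples of 2 triple-negative breast cancer (TNBC) cell lines, MDA-MB-468, used as a stem-like line, and MDA-MB-231, used as a mesenchymal-like line. Each line had 3 wild type control samples and 3 SMARCA4 KO samples. The KO samples came from polyclonal, puromycin-selected pools transduced with a lentiCRISPR-v2 vector that carries 1 guide RNA against SMARCA4, so that a pool can hold unedited cells. The labels call the control samples wild type, while the study describes its control lines as having received a nontargeting CRISPR/Cas9 vector. The labels do not say whether the 3 samples of a group were separate cultures, so p-values measure only the spread between these samples.

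The guide is shown because it defines the KO groups. Read against GRCh37, it had 1 exact match, with the NGG that Cas9 needs beside it, at chr19:11095933-11095952 on the plus strand, inside SMARCA4. Its bases are printed 5′ to 3′ in lower case and the motif in capitals.
SMARCA4 guide with its genomic motif: atggtccctctcgcagcccaTGG

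SMARCA4 itself was examined first, on the deposited log2(FPKM + 1) scale. In MDA-MB-468 cells its log2 values were 6.61, 6.62 and 6.68 in control and 5.35, 5.48 and 5.61 in KO samples. In MDA-MB-231 cells they were 6.10, 6.18 and 6.09 in control and 4.46, 4.64 and 4.56 in KO samples. KO and control samples did not overlap in either line, and the mean FPKM after KO was 44.3% and 32.7% of the control. The log2 fold change was -1.16 in MDA-MB-468 (limma, adjusted p = 0.014) and -1.57 in MDA-MB-231 (limma, adjusted p = 0.0014). In MDA-MB-468 the adjusted p was 0.070 without control replicate 2, 0.057 without control replicate 3 and 0.075 without KO replicate 2. Fitted with a block for the replicate number, it was 0.033 in MDA-MB-468, against 0.052 in MDA-MB-231. The files give no read counts, so sequencing depth is not known for any sample. In bulk RNA, fewer cells that express a gene and less RNA per cell cannot be told apart.

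The epithelial markers set the lines apart in the direction of their types. EPCAM, KRT8, KRT18, KRT19, EGFR and CDH1, which are 6 of 6 epithelial markers listed, summed to between 5386 and 5774 FPKM in control MDA-MB-468 samples and to between 794 and 1181 FPKM in control MDA-MB-231 samples. After KO the sums ran from 6234 to 6693 FPKM and from 1188 to 1306 FPKM, above the control samples in both lines. The single markers did not all rise. In MDA-MB-468 the log2 fold changes were -0.09 for EPCAM and -0.22 for CDH1. They were 0.50 for KRT8, 0.25 for KRT18, 0.07 for KRT19 and 0.16 for EGFR. In MDA-MB-231 they were 0.01, 0.54, 0.43, 0.21, 0.39 and 0.14, in the same order of genes. Of the 3 markers of the mesenchymal-like line, VIM and CD44 were measured and summed to between 829 and 965 FPKM in control MDA-MB-468 samples and between 1692 and 1938 FPKM in control MDA-MB-231 samples, against 752 to 873 and 1485 to 1654 FPKM after KO. The 2 markers went opposite ways. Mean VIM was 2.61 FPKM in control MDA-MB-468 and 1309 in control MDA-MB-231 cells, while mean CD44 was 890 and 482 FPKM. After KO, VIM was 3.73 and 998 FPKM and CD44 818 and 593 FPKM. The log2 level of CDH1 in MDA-MB-231 was 0.16, 0.34 and 0.50 in control and 1.01, 0.92 and 0.70 in KO samples. ERBB2 was measured at 20.8 to 24.1 and 23.3 to 24.5 FPKM in the control samples of the lines and at 18.7 to 21.8 and 27.3 to 28.7 FPKM after KO. In MDA-MB-468 only KRT8 had an adjusted p under 0.05 after KO (limma, 0.032), beside 3.75% of all genes. In MDA-MB-231 only CDH1 (0.044), VIM (0.031) and ERBB2 (0.041) did (limma), beside 10.8% of all genes. CDH1 was near the floor there, at a mean of 0.27 FPKM in control and 0.84 FPKM in KO samples. SPARC, ESR1, PGR and the leukocyte, fibroblast and endothelial markers were not analysed here. The part of these marker differences in the results on repair genes was not tested.

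The median of the mean log2 levels of the repair genes was 4.29 in control MDA-MB-468 and 4.37 in control MDA-MB-231 cells, against medians of 4.16 and 4.14 over all genes. XRCC6, which encodes the Ku70 subunit that binds broken ends, was the highest in every group, at 8.32 ± 0.05 (SD, n = 3) in control MDA-MB-468 and 8.01 ± 0.08 (SD, n = 3) in control MDA-MB-231 cells on the log2 scale. APEX1, XRCC5, MSH6, PARP1 and PRKDC followed in both lines, although in a different order. At the low end stood XRCC3 in MDA-MB-468 (log2 level 2.46 ± 0.02, SD, n = 3) and LIG4 in MDA-MB-231 (log2 level 2.54 ± 0.10, SD, n = 3). Most neighbours in the order of levels were not separated by their samples, with 25 of 37 neighbouring pairs overlapping in control MDA-MB-468 and 29 of 37 in control MDA-MB-231 cells. FPKM is a value per transcript length, so these levels can be set beside each other.

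**Figure D1:**
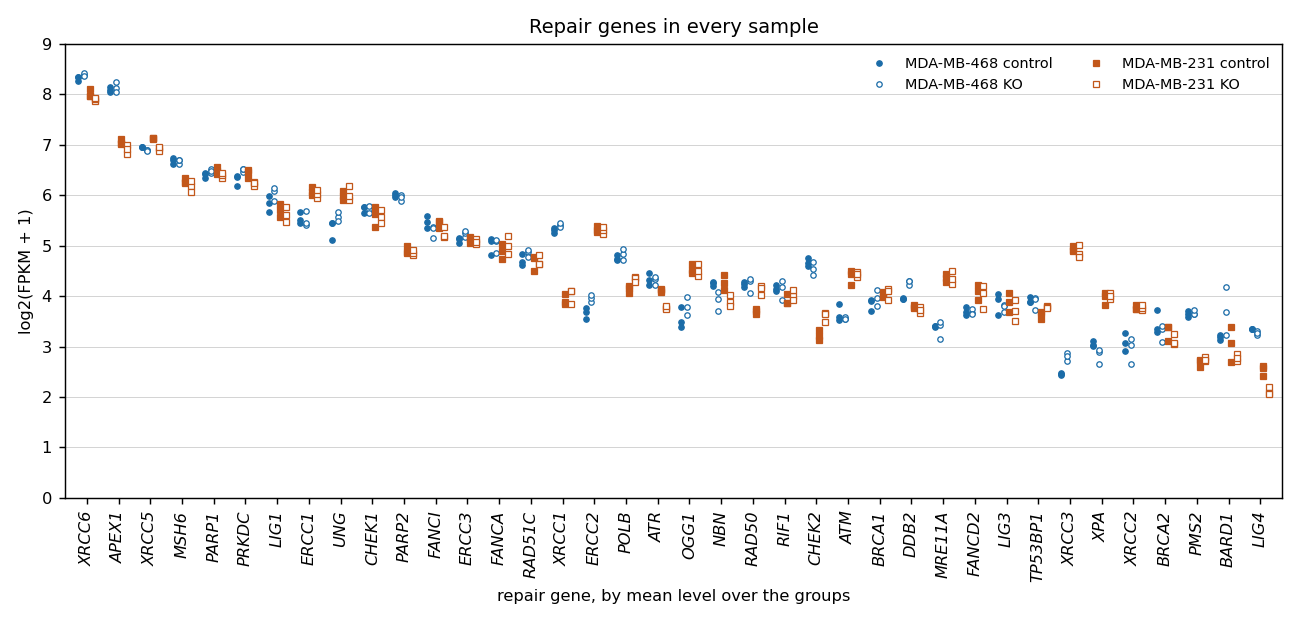
Level of the 38 repair genes in each of the 12 samples. The vertical axis is log2(FPKM + 1), and genes are ordered along the horizontal axis by their mean over the groups. Filled symbols are control and open symbols KO samples, with circles for MDA-MB-468 and squares for MDA-MB-231. XRCC6 stands highest in every group. For genes such as XRCC3, ERCC2, CHEK2 and XRCC1 the circles and squares lie far apart, whereas filled and open symbols of the same line lie close together.

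The first question was whether repair genes changed when SMARCA4 was knocked out. None of the 38 was a differentially expressed gene (DEG) in either line, where DEGs were defined by limma with an adjusted p under 0.05 (Benjamini-Hochberg, all 11529 genes) and by a log2 fold change of more than 0.5 in size. This was 0 of 38 in MDA-MB-468, where 2.14% of all genes were DEGs, and 0 of 38 in MDA-MB-231, where 3.70% were. At an unadjusted p under 0.05 there were 5 of 38 in MDA-MB-468, beside 25.1% of all genes, and 10 of 38 in MDA-MB-231, beside 31.2% of all genes. The median log2 fold change of the repair genes was -0.004 for MDA-MB-468 and -0.05 for MDA-MB-231, and over all genes it was 0.02 and -0.01. In MDA-MB-468, 19 repair genes had a positive and 19 a negative fold change, and in MDA-MB-231 there were 13 positive and 25 negative ones. Over all genes there were 6177 positive and 5241 negative ones in MDA-MB-468, and 5487 and 5935 in MDA-MB-231.

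A missed threshold does not show that a gene is unaltered, so the intervals were examined. The 95% interval of the log2 fold change lay within 0.5 on either side of 0 for 32 of 38 repair genes (84.2%) in each line, and for 75.9% and 75.1% of all genes. The 6 genes with wider or shifted intervals were BRCA2, BARD1, XRCC2, NBN, UNG and OGG1 in MDA-MB-468, and BARD1, RAD50, NBN, CHEK2, LIG4 and LIG3 in MDA-MB-231. In 14 of 38 repair genes the 3 KO samples of MDA-MB-468 were all above (10 genes) or all below (4 genes) the controls, which is 36.8% beside 31.0% of all genes. In MDA-MB-231 this held for 11 of 38, 4 above and 7 below, which is 28.9% beside 36.0% of all genes.

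**Figure D2:**
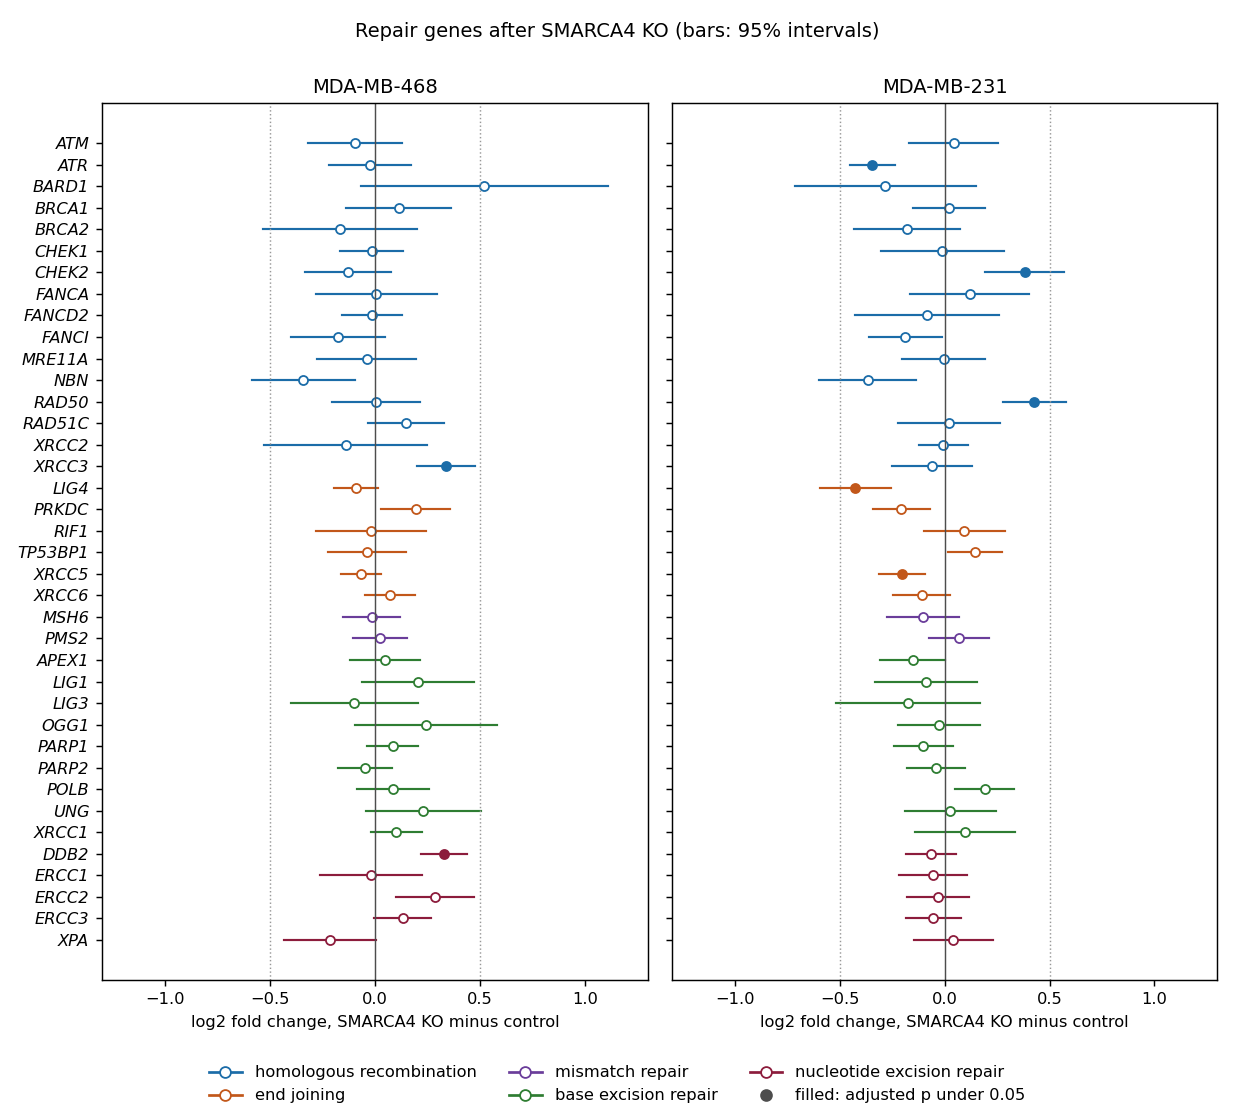
Log2 fold change of the 38 repair genes after SMARCA4 KO, by pathway, in MDA-MB-468 (left) and MDA-MB-231 (right). Points are fold changes with 95% intervals, filled where the adjusted p is under 0.05, and dotted lines mark 0.5 on either side of 0. Filled points are XRCC3 and DDB2 in MDA-MB-468 and RAD50, ATR, CHEK2, XRCC5 and LIG4 in MDA-MB-231; except for BARD1 in MDA-MB-468, no point lies beyond the dotted lines.

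With no limit on the fold change, 2 of 38 repair genes passed an adjusted p under 0.05 in MDA-MB-468, beside 3.75% of all genes, and 5 of 38 in MDA-MB-231, beside 10.8% of all genes. The genes of homologous recombination are taken first. RAD50 encodes the long coiled-coil subunit of the MRN complex, which senses and tethers broken ends. Its log2 level in MDA-MB-231 was 3.75, 3.65 and 3.71 in control and 4.20, 4.03 and 4.15 in KO samples. In MDA-MB-468 it was 4.27, 4.24 and 4.17 in control and 4.07, 4.30 and 4.34 in KO samples. The groups were separate in MDA-MB-231 and overlapped in MDA-MB-468. RAD50 rose in MDA-MB-231 with a log2 fold change of 0.43 (95% interval 0.28 to 0.58, limma adjusted p = 0.018), and in MDA-MB-468 the fold change was 0.01 (95% interval -0.20 to 0.21). The other subunits of the complex took other values. MRE11A, its nuclease, had log2 fold changes of -0.04 in the first line and of -0.003 in MDA-MB-231. NBN, its signalling subunit, had log2 fold changes of -0.34 (limma, adjusted p = 0.11) and -0.37 (limma, adjusted p = 0.061), and its KO samples lay below the controls in both lines. After a correction of each sample for GC content and transcript length, the NBN value in MDA-MB-231 was -0.29 with a limma adjusted p of 0.044.

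CHEK2, a checkpoint kinase activated by ATM, gave log2 levels of 3.21, 3.12 and 3.32 in control and 3.67, 3.64 and 3.49 in KO samples of MDA-MB-231. In MDA-MB-468 the levels were 4.59, 4.76 and 4.66 in control and 4.67, 4.53 and 4.42 in KO samples. KO samples stood above controls in MDA-MB-231, and the groups overlapped in MDA-MB-468. The log2 fold change was 0.38 (95% interval 0.19 to 0.57, limma adjusted p = 0.037) in MDA-MB-231 and -0.13 (95% interval -0.33 to 0.08) in MDA-MB-468. CHEK2 has pseudogene copies with nearly the same sequence, so its level is uncertain to the extent that reads were shared among them. ATR, the kinase that responds to single-stranded DNA at stalled forks, fell in MDA-MB-231 with a log2 fold change of -0.34 (limma, adjusted p = 0.014), from 4.14, 4.12 and 4.07 to 3.76, 3.75 and 3.79. In MDA-MB-468 its fold change was -0.02. ATM and CHEK1 had log2 fold changes between -0.10 and 0.04 in both lines, with KO and control samples overlapping.

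XRCC3 is a homologous recombination factor that helps to build and resolve recombination intermediates. In MDA-MB-468 its log2 levels were 2.48, 2.46 and 2.44 in control and 2.87, 2.71 and 2.82 in KO samples. In MDA-MB-231 they were 4.89, 5.0 and 4.92 in control and 4.83, 4.78 and 5.02 in KO samples. The groups did not overlap in MDA-MB-468 but did in MDA-MB-231. XRCC3 rose in MDA-MB-468 with a log2 fold change of 0.34 (95% interval 0.20 to 0.48, limma adjusted p = 0.039). In this line the replicate numbers were taken to pair the samples, as a hint from the data and not from the labels. With this block the adjusted p was 0.069 (limma). After the GC and length correction the fold change was 0.23 (limma, adjusted p = 0.066).

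BARD1, the partner of BRCA1 in its ubiquitin ligase, had the largest fold change of any repair gene after KO. Its log2 levels were 3.20, 3.22 and 3.12 in control and 3.68, 4.19 and 3.23 in KO samples of MDA-MB-468, and 3.08, 3.39 and 2.70 in control and 2.70, 2.85 and 2.78 in KO samples of MDA-MB-231. The 3 KO samples of MDA-MB-468 were above the controls but far apart (SD 0.48), while in MDA-MB-231 the control samples were the ones far apart (SD 0.35). The log2 fold change of 0.52 in MDA-MB-468 did not pass the test (95% interval -0.07 to 1.11, limma adjusted p = 0.24), nor did that of -0.28 in MDA-MB-231 (limma, adjusted p = 0.33). BRCA1 had log2 fold changes of 0.11 and 0.02, and BRCA2, a mediator of homologous recombination, -0.17 and -0.18. RAD51C, XRCC2 and the crosslink repair genes FANCA, FANCD2 and FANCI stayed between -0.19 and 0.15 in both lines, and their KO samples overlapped the controls.

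In end joining, Ku holds the ends, the kinase PRKDC (DNA-PKcs) brings them together and LIG4 seals them. LIG4 had log2 levels of 2.57, 2.61 and 2.42 in control and 2.19, 2.08 and 2.07 in KO samples of MDA-MB-231. In MDA-MB-468 it read 3.35, 3.36 and 3.36 in control and 3.22, 3.30 and 3.27 in KO samples. All KO samples were below the controls in both lines. LIG4 fell in MDA-MB-231 with a log2 fold change of -0.43 (95% interval -0.59 to -0.26, limma adjusted p = 0.024), to 69.1% of the control FPKM. The fold change is smaller than the FPKM ratio implies, since 1 is added to each FPKM before the log. In MDA-MB-468 its log2 fold change was -0.09 (95% interval -0.20 to 0.02, limma adjusted p = 0.26). With a pseudocount of 0.1 in place of 1 the MDA-MB-231 value was -0.52, and LIG4 was then the only repair gene to pass the rule for DEGs in that line.

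PRKDC gave log2 levels of 6.19, 6.37 and 6.38 in control and 6.47, 6.53 and 6.52 in KO samples of MDA-MB-468. In MDA-MB-231 the levels were 6.49, 6.34 and 6.46 in control and 6.18, 6.25 and 6.24 in KO samples. KO samples were above the controls in the first line and below them in the second. Neither difference passed the test, at log2 fold changes of 0.19 (limma, adjusted p = 0.15) and -0.21 (limma, adjusted p = 0.069). XRCC5, the Ku80 subunit, fell in MDA-MB-231 by 0.20 on the log2 scale (limma, adjusted p = 0.046), and with the GC and length correction its fold change was -0.14 (limma, adjusted p = 0.14). XRCC6 had fold changes of 0.07 and -0.11, and TP53BP1 and RIF1, which steer breaks away from resection, lay between -0.04 and 0.15.

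Mismatch repair was represented by MSH6, a subunit of the mismatch-binding dimer, and PMS2, a subunit of the nicking dimer. MSH6 had log2 levels of 6.63, 6.75 and 6.70 in control and 6.61, 6.71 and 6.71 in KO samples of MDA-MB-468, and of 6.26, 6.35 and 6.24 in control and 6.19, 6.07 and 6.28 in KO samples of MDA-MB-231. PMS2 had levels of 3.70, 3.64 and 3.59 in control and 3.64, 3.64 and 3.72 in KO samples of MDA-MB-468, and of 2.74, 2.71 and 2.59 in control and 2.80, 2.71 and 2.73 in KO samples of MDA-MB-231. KO and control samples overlapped for both genes in both lines, with log2 fold changes between -0.10 and 0.07. PMS2 has pseudogene copies too, so its level carries the same uncertainty as that of CHEK2.

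The 9 genes of base excision repair showed no fold change past the test. OGG1, the glycosylase for oxidised guanine, had the largest value in MDA-MB-468, from 3.39, 3.78 and 3.48 in control to 3.98, 3.63 and 3.78 in KO samples on the log2 scale. Its groups overlapped, and the fold change was 0.24 (95% interval -0.09 to 0.58, limma adjusted p = 0.32). In MDA-MB-231 its levels were 4.46, 4.63 and 4.52 in control and 4.40, 4.63 and 4.50 in KO samples. POLB, the gap-filling polymerase, had the largest value in MDA-MB-231, from 4.06, 4.20 and 4.17 in control to 4.37, 4.35 and 4.27 in KO samples. These groups were separate, and the log2 fold change was 0.19 (95% interval 0.05 to 0.33, limma adjusted p = 0.088), or 0.30 with a limma adjusted p of 0.031 after the GC and length correction. In MDA-MB-468, POLB read 4.71, 4.81 and 4.73 in control and 4.84, 4.94 and 4.72 in KO samples. UNG, APEX1, XRCC1, LIG1, LIG3, PARP1 and PARP2 had log2 fold changes between -0.10 and 0.23 in the first line and between -0.17 and 0.10 in the second.

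In nucleotide excision repair, DDB2, which finds ultraviolet damage in chromatin, had log2 levels of 3.94, 3.95 and 3.95 in control and 4.30, 4.22 and 4.30 in KO samples of MDA-MB-468. In MDA-MB-231 the levels were 3.77, 3.79 and 3.82 in control and 3.67, 3.79 and 3.73 in KO samples. The KO samples of MDA-MB-468 stood clear of controls that differed from each other by little, and in MDA-MB-231 the groups overlapped. DDB2 rose in MDA-MB-468 with a log2 fold change of 0.33 (95% interval 0.22 to 0.44, limma adjusted p = 0.029), to 127.5% of the control FPKM. With the replicate block its adjusted p was 0.061, and with the GC and length correction the fold change was 0.30 (limma, adjusted p = 0.031). In MDA-MB-231 its fold change was -0.06 (95% interval -0.18 to 0.05). ERCC2, a helicase of TFIIH, had KO samples above the controls in MDA-MB-468 at a log2 fold change of 0.29 (limma, adjusted p = 0.090), and XPA, ERCC1 and ERCC3 lay between -0.22 and 0.13 in both lines.

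These 7 single-gene results rested on few samples. When the 6 samples of a line were left out in turn, XRCC3 and DDB2 kept an adjusted p under 0.05 only without KO replicate 1, and elsewhere their adjusted p ran from 0.079 to 0.136. RAD50 kept it only without control replicate 1 (otherwise 0.051 to 0.063), LIG4 only without control replicate 3 (otherwise 0.061 to 0.098), and CHEK2 and XRCC5 in no case (0.053 to 0.138). ATR lost it without KO replicate 1 (0.058) and without KO replicate 2 (0.072). Across genes, the fold change in MDA-MB-468 moved with the GC content of the transcript, with a Spearman correlation of 0.56 over the 38 repair genes and of 0.31 over the 10841 genes that have a value; in MDA-MB-231 it was 0.14 and 0.29. After the GC and length correction it was 0.26 and -0.05 in MDA-MB-468 and -0.007 and 0.01 in MDA-MB-231. In MDA-MB-468, part of the correlation over the repair genes therefore remained after the correction. The genes share their libraries, and the correlations are given as a description.

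The second question was whether the response to KO differed between the lines. In 1 fit of all 12 samples, the change in MDA-MB-468 minus the change in MDA-MB-231 passed an adjusted p under 0.05 for 6 of 38 repair genes (15.8%), beside 14.7% of all genes. They were DDB2, PRKDC, XRCC3 and LIG4, where the change in MDA-MB-468 was the higher, and CHEK2 and RAD50, where that in MDA-MB-231 was the higher. CHEK2 had the largest difference, at -0.51 on the log2 scale (standard error 0.12, limma adjusted p = 0.019). DDB2 differed by 0.39 (standard error 0.08, limma adjusted p = 0.0090) and PRKDC by 0.40 (standard error 0.10, limma adjusted p = 0.021). RAD50 differed by -0.42 (limma, adjusted p = 0.030), XRCC3 by 0.40 (limma, adjusted p = 0.028) and LIG4 by 0.34 (limma, adjusted p = 0.033). The signs are not opposite for every gene: PRKDC had its KO samples above the controls in one line and below them in the other, while for the rest the groups were separate in 1 line and overlapped in the other, or, for LIG4, lay on the same side in both. BARD1 had a larger difference, 0.80, that did not pass (95% interval 0.16 to 1.45, limma adjusted p = 0.089).

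With a block for the replicate number, the difference passed for DDB2 (adjusted p = 0.030) and PRKDC (adjusted p = 0.041) and missed for CHEK2, RAD50, LIG4 and XRCC3 (adjusted p from 0.050 to 0.056), where 0.050 for CHEK2 is a rounded value above the threshold. Over all genes, 1463 of 11529 passed with this block. With the GC and length correction 9 of 38 passed, the same 6 along with ATR, XPA and ERCC2. This was beside 1728 of the 10841 genes that have a GC value. When the 12 samples were left out in turn, DDB2 and CHEK2 passed in all 12 fits and PRKDC in 10, while XRCC3 and RAD50 passed in 6 and LIG4 in 3. The count of 6 was 3 without MDA-MB-468 control replicate 2, without MDA-MB-231 control replicate 2 and without MDA-MB-231 KO replicate 1.

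**Figure D3:**
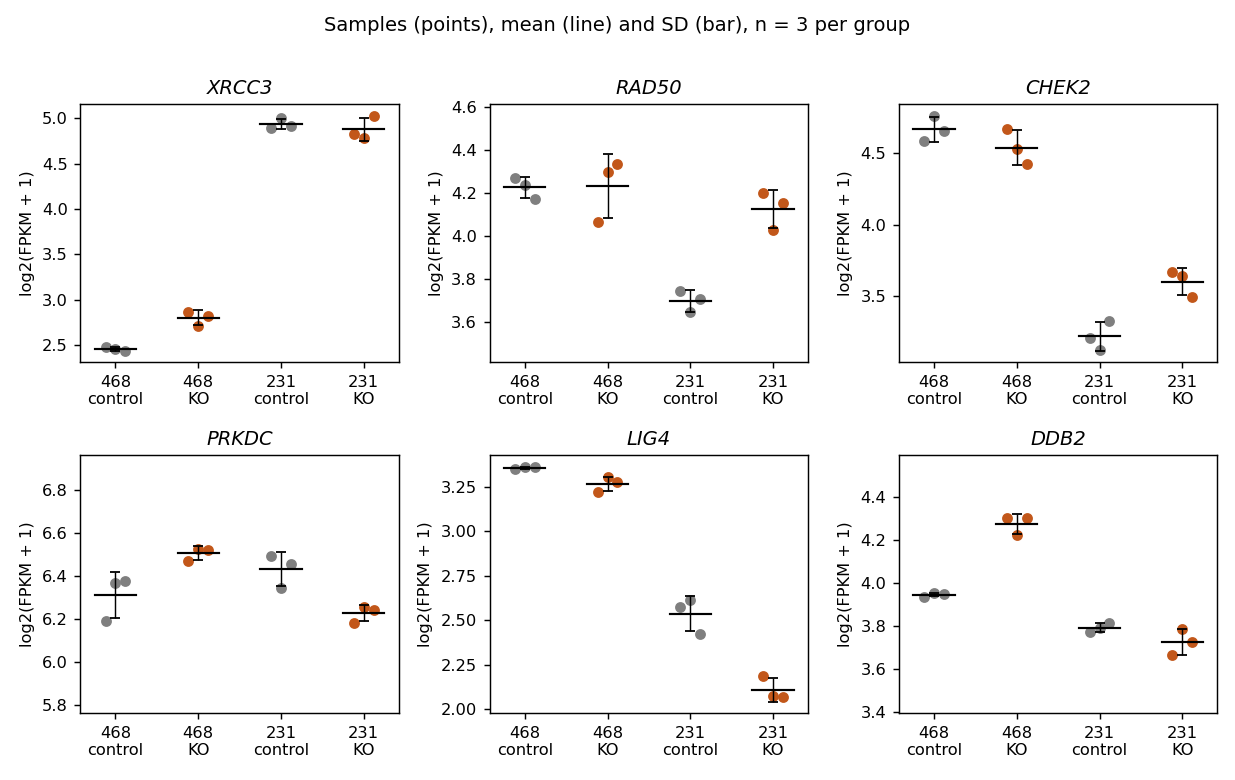
The 6 repair genes with a different response to KO in the lines (adjusted p under 0.05). Points are samples on the log2(FPKM + 1) scale, horizontal lines group means and bars SD (n = 3 per group), with control samples in grey and KO samples in orange; each panel has its own vertical range. RAD50 and CHEK2 step up in MDA-MB-231, DDB2 and XRCC3 step up in MDA-MB-468, LIG4 steps down in MDA-MB-231, and PRKDC is higher after KO in MDA-MB-468 and lower in MDA-MB-231.

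The third question was how the lines differ before KO. Control MDA-MB-468 and control MDA-MB-231 cells differed in 17 of 38 repair genes (44.7%) by the same rule, beside 64.1% of all genes, 8 higher and 9 lower in MDA-MB-468. The authors kept only genes with an SD of FPKM of at least 1 over the 12 samples, which favours genes that differ between the lines. By pathway, the genes called were 6 of 16 in homologous recombination, 1 of 6 in end joining, 1 of 2 in mismatch repair, 6 of 9 in base excision repair and 3 of 5 in nucleotide excision repair. XRCC3 had the largest difference, at -2.48 on the log2 scale (95% interval -2.63 to -2.32, limma adjusted p = 1.6e-08), with 4.51 FPKM in MDA-MB-468 and 29.6 FPKM in MDA-MB-231 control cells, 6.58 times as much. CHEK2 went the other way, at 1.45 (95% interval 1.26 to 1.64, limma adjusted p = 1.2e-06), with 24.5 FPKM in MDA-MB-468 and 8.32 FPKM in MDA-MB-231. The samples of these genes, given above, lay far apart between the lines.

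The promoters of XRCC3 and CHEK2 are shown as the genes with the largest difference in each direction, both also among the 6 that responded differently. The RefSeq windows hold 250 bases before and 50 after the gene start in build GRCh38.p14, at chr14:103715402-103715701 and chr22:28741771-28742070, and are read on the minus strand, which both genes use. Capitals mark matches on either strand to the CCAAT box (CCAAT) and the GC box (GGGCGG). No match overlapped one of another motif.
XRCC3: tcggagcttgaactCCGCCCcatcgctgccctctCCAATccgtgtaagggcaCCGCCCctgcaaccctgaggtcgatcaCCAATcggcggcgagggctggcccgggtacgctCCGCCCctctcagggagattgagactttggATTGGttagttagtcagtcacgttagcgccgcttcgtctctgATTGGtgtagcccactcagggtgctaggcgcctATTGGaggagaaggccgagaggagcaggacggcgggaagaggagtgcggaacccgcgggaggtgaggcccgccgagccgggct
CHEK2: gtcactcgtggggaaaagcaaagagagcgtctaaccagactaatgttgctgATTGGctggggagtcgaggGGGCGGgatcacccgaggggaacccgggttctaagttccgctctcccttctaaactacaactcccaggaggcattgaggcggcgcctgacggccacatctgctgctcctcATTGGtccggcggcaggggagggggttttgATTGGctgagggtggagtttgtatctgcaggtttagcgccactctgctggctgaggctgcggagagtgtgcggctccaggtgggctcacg
The XRCC3 window held 5 CCAAT and 3 GGGCGG matches and the CHEK2 window 3 and 1. Among 33 repair genes with a window in RefSeq, 17 held CCAAT (51.5%) and 25 held GGGCGG (75.8%), against 35.7% and 44.6% of the 27305 windows, noncoding genes included. The E2F letters TTTCCCGC, TTTGGCGC, TTTCGCGC or TTTGCCGC stood in 7 of 33 (21.2%), those of XRCC2, FANCA, FANCD2, XRCC6, MSH6, PMS2 and LIG1, against 3.3% of all windows. TTTGAA, the letters of the cell cycle homology region, stood in 3 of 33 (9.1%, against 15.4%) and TGANTCA, those of AP-1, in 0 of 33 (against 7.8%). Only the first listed window of a gene was read, and a match of letters is a description, not a binding site.

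Higher in MDA-MB-468 were, next to CHEK2, XRCC1, PARP2, APEX1 and PMS2. XRCC1, the scaffold of single-strand break repair, had log2 levels of 5.25, 5.31 and 5.35 in MDA-MB-468 and 3.88, 4.05 and 3.84 in MDA-MB-231 control samples, a difference of 1.38 (limma, adjusted p = 1.3e-06). PARP2, which marks breaks with poly(ADP-ribose), had 5.96, 6.0 and 6.05 against 4.87, 4.86 and 4.99, a difference of 1.1 (limma, adjusted p = 2.5e-06). XRCC1 and PARP2 work together at single-strand breaks. The base excision repair genes not called were LIG1 at 0.13, LIG3 at -0.01 and PARP1 at -0.09 (limma, adjusted p = 0.26, 0.95 and 0.26). APEX1, the endonuclease that cuts at sites without a base, had log2 levels of 8.04, 8.09 and 8.14 against 7.03, 7.02 and 7.12, a difference of 1.03 (limma, adjusted p = 2.9e-06). PMS2 differed by 0.97 (limma, adjusted p = 6.6e-06). PARP2 and APEX1 both lie on chromosome 14 of GRCh37, from 20811774 to 20826063 and from 20923350 to 20925931. XRCC3, on chromosome 14 from 104163946 to 104181841, was lower at -2.48. The part of gene position in these differences was not tested.

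Lower in MDA-MB-468 were, next to XRCC3, ERCC2, OGG1, MRE11A and XPA. ERCC2 had log2 levels of 3.77, 3.54 and 3.69 in MDA-MB-468 and 5.40, 5.27 and 5.32 in MDA-MB-231 control samples, a difference of -1.66 (limma, adjusted p = 5.4e-07). It lies from 45853095 to 45874176 on chromosome 19. ERCC1, the nuclease partner in incision, lies from 45910592 to 45982086 and was lower too at -0.54. XRCC1, on the same chromosome from 44047463 to 44084625, was higher. LIG1, also on it from 48618702 to 48673860, was not called (0.13). OGG1 differed by -0.99 (limma, adjusted p = 7.0e-05). MRE11A, the nuclease of the MRN complex, had log2 levels of 3.40, 3.41 and 3.39 against 4.37, 4.44 and 4.28, a difference of -0.96 (limma, adjusted p = 4.8e-06). XPA, a damage-verifying protein of nucleotide excision repair, had 3.11, 3.0 and 3.02 against 3.83, 4.0 and 4.07, a difference of -0.92 (limma, adjusted p = 1.9e-05). In all of these genes the samples of the lines did not overlap. The other genes called were LIG4 (0.82), POLB (0.61) and RAD50 (0.53) on the higher side, and ATM (-0.74), XRCC2 (-0.69), UNG (-0.65) and ERCC1 on the lower side.

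The same comparison was repeated in the KO samples, which the first one had not used. There 18 of 38 repair genes were called (47.4%), beside 62.8% of all genes, 10 higher and 8 lower in MDA-MB-468. Of the 17 genes called in control cells, 15 were called in KO cells as well, all 15 in the same direction. The share of all genes called in both comparisons was not computed, and 64.1% and 62.8% were called in each. The KO pools were made from the same 2 lines, so the repeat is not particular to repair genes and no independent test. RAD50 and UNG were called in control cells alone, and BARD1, ATR and DDB2 in KO cells alone. RAD50 had differed by 0.53 in control cells and differed by 0.11 (95% interval -0.11 to 0.32) in KO cells, and DDB2 went from 0.15 to 0.55. XRCC3 differed by -2.08 and CHEK2 by 0.94 in KO cells, smaller than in control cells, and LIG4 by 1.15, larger than in control cells. These shifts are the differences in response given above, seen from the other side, and are no separate result.

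**Figure D4:**
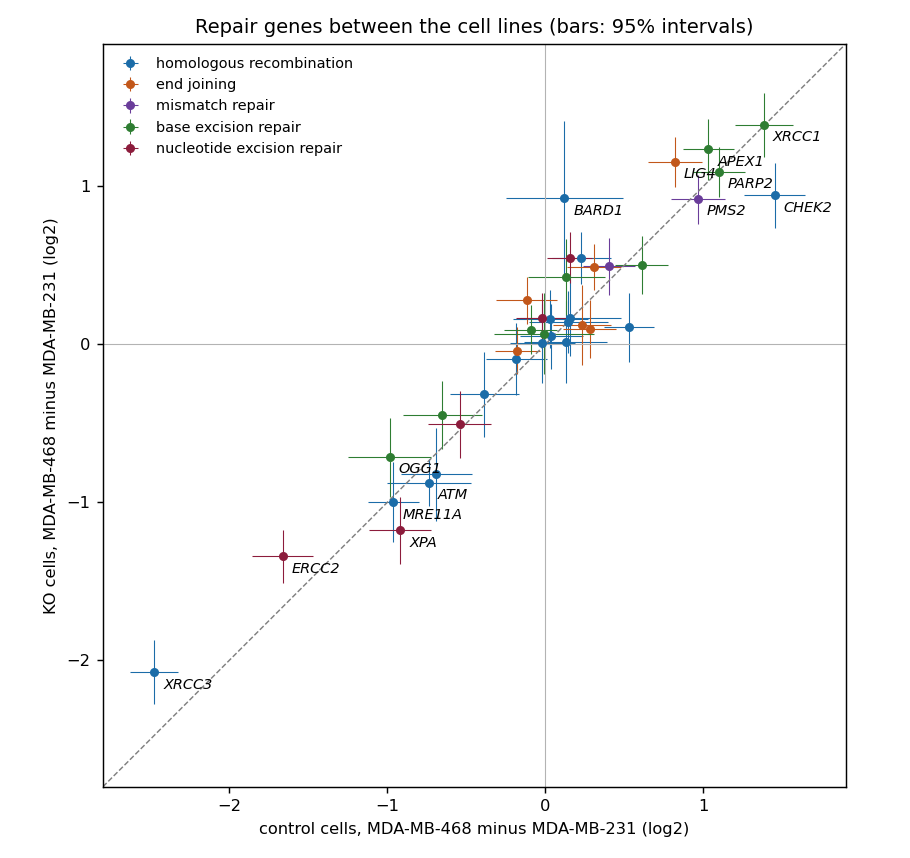
Difference between the lines for the 38 repair genes in control cells (horizontal axis) and in KO cells (vertical axis), both as MDA-MB-468 minus MDA-MB-231 on the log2 scale, coloured by pathway, with 95% intervals. The dashed line marks equal differences. The genes lie along it from XRCC3 (-2.48 and -2.08) to XRCC1 (1.38 and 1.39), with CHEK2 below it and BARD1 above it.

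A wider list of 136 other repair genes, of which 120 were in the table, was read in the same way. No gene of it was a DEG after KO in either line (limma, 0 of 120 in each), beside 2.14% of all genes for MDA-MB-468 cells and 3.70% for MDA-MB-231 cells. At an unadjusted p under 0.05 there were 17 of 120 (14.2%, beside 25.1% of all genes) in MDA-MB-468 and 34 of 120 (28.3%, beside 31.2%) in MDA-MB-231. The median log2 fold changes were 0.03 and -0.06. With no limit on the fold change, 1 of 120 passed in MDA-MB-468 (0.83%, beside 3.75% of all genes), the glycosylase gene NEIL1 at -0.34 (limma, adjusted p = 0.034). In MDA-MB-231, 8 of 120 passed (6.67%, beside 10.8% of all genes) and all fell. Of all genes, 616 passed as higher and 632 as lower, and of the 38 repair genes 2 and 3. Among the 8 were CCNH, a TFIIH subunit, at -0.47 (limma, adjusted p = 0.018), and EXO1 at -0.24 (limma, adjusted p = 0.038). EXO1 is an exonuclease of end resection and mismatch repair. The response differed between the lines for 7 of 120 (5.83%, beside 14.7% of all genes). Between control lines 59 of 120 were called (49.2%, beside 64.1% of all genes), 18 higher and 41 lower in MDA-MB-468. Of all genes, 3773 were called higher and 3622 lower. In homologous recombination 21 of 53 were lower and 4 higher, and in end joining 5 of 10 were lower and 1 higher. In nucleotide excision repair 6 of 18 were lower and 4 higher. In mismatch repair 4 of 14 were lower and 3 higher, and in base excision repair 3 of 14 were lower and 1 higher. Damage tolerance and reversal leaned the other way, with 5 of 11 higher and 2 lower.

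Many recombination genes are expressed in the S and G2 phases, so cell cycle genes were read beside them. After KO, 0 of 24 S phase and 0 of 16 G2 and mitosis genes were DEGs in either line (limma), beside 2.14% of all genes for MDA-MB-468 cells and 3.70% for MDA-MB-231 cells. At an unadjusted p under 0.05 there were 2 of 24 (8.33%) and 3 of 16 (18.8%) in MDA-MB-468, beside 25.1% of all genes, and 12 of 24 (50.0%) and 6 of 16 (37.5%) in MDA-MB-231, beside 31.2%. The median log2 fold changes were 0.05 and 0.06 in MDA-MB-468. They were 0.003 and -0.15 in MDA-MB-231, where all 16 G2 and mitosis genes had negative values. The largest was that of AURKA at -0.29 (limma, adjusted p = 0.034). Over all genes 5487 values were positive and 5935 negative in this line. Genes read in the same libraries are not independent of each other. Among S phase genes, 3 of 24 passed in MDA-MB-231 with no limit on the fold change (12.5%, beside 10.8% of all genes). CCNE2 fell, at -0.41 (limma, adjusted p = 0.027), while MCM6 rose, at 0.26 (limma, adjusted p = 0.021), as did CCNE1, at 0.28 (limma, adjusted p = 0.036). Between control lines 9 of 16 G2 and mitosis genes were called (56.2%, beside 64.1% of all genes), all lower in MDA-MB-468, with a median difference of -0.66. Of the S phase genes 11 of 24 were called (45.8%), 4 higher and 7 lower, with a median difference of -0.21. The part of these differences in the results on repair genes was not tested.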

How the data were processed

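RNA sequencing (TruSeq stranded mRNA) of 12 samples was used, 3 per group. The authors aligned reads to hg19 with STAR, quantified genes as FPKM with RSEM, left out those whose average FPKM or SD was below 1, and deposited the rest as log2(FPKM + 1); read counts were not used here, so depth is unknown. In the deposited values the smallest average was 1.07 FPKM and the smallest SD 1.00 FPKM. Each column matched 1 sample by its title.

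Groups followed the cell line and genotype labels. The deposited log2 values of all 11529 genes were fitted separately for the lines (limma 3.58.1, R 4.3.3). DEGs needed an adjusted p (Benjamini-Hochberg) under 0.05 and a log2 fold change of more than 0.5 in size. Differences in response were the interaction in 1 fit of 12 samples, and control lines, and then KO lines, were compared by the rule for DEGs. Intervals are 95% intervals of the fits. Every log2 fold change or difference is one of log2(FPKM + 1) values, so for genes of low FPKM it is smaller than the FPKM ratio implies. The fits were tested on simulated data. The members and the gene lists were chosen with earlier results of these data known. Per-sample values are given for genes whose response differed, for the largest fold change of each pathway in each line, and for the 5 largest differences between control lines in each direction. ATR was added to these after its values were seen. Values of some genes of the wider list are not reported here.

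In MDA-MB-468 same-numbered control and KO samples deviated together (correlations across genes 0.25, 0.16 and 0.12), so the replicate numbers of the titles were taken to pair them, as a hint from the data; in MDA-MB-231 they did not (-0.05, 0.07 and -0.11). The column names carry another number, after the letter p, whose meaning is not given in the sources used here. In MDA-MB-468 it was 26, 27 and 28 for control and 25, 26 and 27 for KO replicates 1, 2 and 3, so the block did not join samples that share it. The 2 pairs that share it had correlations of -0.23 and 0.03, and control replicate 3 correlated slightly more with KO replicate 2 (0.13) than with its own number. The alternatives were a pseudocount of 0.1, a mean log2 value over 2, an intensity trend, 1 fit of all samples, scaling to the 75th percentile, quantile normalization, a loess correction (span 0.3) for GC content and transcript length, the replicate block, other thresholds, and leaving out each sample. Transcripts were taken from GENCODE mapped to GRCh37, where 94.6% of the gene symbols matched. A GC content and length were found for 10841 genes, all 38 repair genes among them. Sequences, motifs and figures were handled with Python 3.11.15 and matplotlib 3.10.9.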

Additional observations from a re-analysis of the deposited data

Results flagged for a closer look

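The response of 6 repair genes differed between the lines by a test of the difference itself, the limma interaction over 12 samples with adjustment over all genes. As the change in MDA-MB-468 minus the change in MDA-MB-231 on the log2 scale, the values were 0.40 for XRCC3, -0.42 for RAD50, -0.51 for CHEK2, 0.40 for PRKDC, 0.34 for LIG4 and 0.39 for DDB2. This is 15.8% of the repair genes, beside 14.7% of all genes. Of these 6, DDB2 and CHEK2 passed whichever sample was left out, and DDB2 and PRKDC passed with the replicate block.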

How the results depend on the processing

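The count of 0 DEGs among the repair genes after KO held in all 15 alternatives that kept the rule in MDA-MB-468 and in all but the pseudocount of 0.1 (1 gene, LIG4) in MDA-MB-231, and with no limit on the fold change the counts were 2 and 5. The median log2 fold change in MDA-MB-468, -0.004, turned positive, at 0.054 with the GC and length correction and from 0.0016 to 0.0495 as samples were left out in turn. The number of genes whose response differed, 6, was 2 with the replicate block, 1 with an absolute difference over 0.5 (chosen after seeing the data), and 3 to 6 as samples were left out. Over all genes, 1463 of 11529 passed with the block. With an absolute log2 difference over 1 the control lines differed in 6 and the KO lines in 8 genes. The counts over all genes at these other settings are not reported here. The log2 fold change of SMARCA4 in MDA-MB-468 ran from -1.23 to -1.10 as samples were left out, and in MDA-MB-231 it was -1.57 with the replicate block (limma, adjusted p = 0.052). The block in MDA-MB-231, where same-numbered samples did not deviate together, left no repair gene under an adjusted p of 0.05, and none of all 11529 genes (0 of 11529). The fitted value took both signs over the alternatives for 16 of 38 repair genes after KO in MDA-MB-468, 13 in MDA-MB-231, 13 for the difference in response, 6 between control and 3 between KO lines. None of these reached an adjusted p under 0.05 in any alternative of that comparison (limma), and their reported values were at most 0.14 in size. The causes of these changes were not tested. The comparison of the KO lines was added after seeing the data. With 3 samples per group and unknown depth, changes well under 0.5 on the log2 scale could be missed.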
